A study of Mus musculus with 6 samples.

Results

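Mitochondrial ribosomal protein genes were taken as every gene symbol of the table that begins with Mrpl or Mrps and a number. The rule found 81 of 41254 symbols, 50 of them Mrpl (large subunit by name) and 31 Mrps (small subunit by name). Of these 81, 4 are pseudogenes (Mrpl23-ps1, Mrpl48-ps, Mrps36-ps1 and Mrps36-ps2), which leaves 77 genes, 48 large and 29 small. None of the 81 lay at a locus whose estimate had failed in the authors' software, so none was left out on that ground. The RNA came from DN3a thymocytes of adult C57BL/6 mice, T cell precursors that carry neither CD4 nor CD8 and stand before selection for the beta chain of the T cell receptor. The 3 libraries of one group were from wild-type mice and the 3 of the other from mice whose genotype is labelled Tg_Cd2_GATA3, an added GATA3 transgene. The labels tell neither which element drives the transgene nor whether each library came from its own mouse, so a p-value here measures only the spread between these libraries, part of which may be technical. The comparison asks how RNA levels at this stage differ when GATA3, a T-lineage transcription factor, is added.

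Mitochondria carry their own ribosome, which translates the few membrane proteins of the respiratory chain that the mitochondrial genome encodes. All of its proteins are encoded in the nucleus, made in the cytosol and imported, and are assembled there on ribosomal RNA made inside the organelle. Some are counterparts of bacterial ribosomal proteins and others have no bacterial relative. The names do not always match the place in the particle: in mammals Mrps18a and Mrps30 sit in the large subunit, and Mrps36 is known as a subunit of the alpha-ketoglutarate dehydrogenase complex. Growing and dividing lymphocytes depend on mitochondrial translation for respiration.

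Promoter windows of 5 genes are printed, 4 to show short motifs long associated with genes of mitochondrial function and 1 to show a window without them. A window runs from 250 bases before to 50 after the annotated start, and RefSeq held one or more for 68 of the 77 genes (74 windows). Searched on both strands were GCGCA, any base and then GCGC, a form of the site of NRF1, CCGGAAGT, a form of the site of ETS factors such as GABPA, and ATGGCGGC, the core of the site of YY1. No motif contains another, and capitals mark each match. Mrpl12, Mrpl45, Mrps22 and Mrps5 hold at least 1 match each, and Mrpl42, the gene with the lowest fold change below, holds none, as do the windows of Mrpl2 and Mrps18b, which are not printed.
Mrpl12 (GRCm38.p6 chr11:120484387-120484686, plus strand): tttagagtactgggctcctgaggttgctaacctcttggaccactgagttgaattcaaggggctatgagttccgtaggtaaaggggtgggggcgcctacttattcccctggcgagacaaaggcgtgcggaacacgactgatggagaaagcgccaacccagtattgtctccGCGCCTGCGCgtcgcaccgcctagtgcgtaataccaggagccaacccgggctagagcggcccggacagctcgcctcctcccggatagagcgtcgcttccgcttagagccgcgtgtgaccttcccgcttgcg
Mrpl45 (GRCm38.p6 chr11:97315466-97315765, plus strand): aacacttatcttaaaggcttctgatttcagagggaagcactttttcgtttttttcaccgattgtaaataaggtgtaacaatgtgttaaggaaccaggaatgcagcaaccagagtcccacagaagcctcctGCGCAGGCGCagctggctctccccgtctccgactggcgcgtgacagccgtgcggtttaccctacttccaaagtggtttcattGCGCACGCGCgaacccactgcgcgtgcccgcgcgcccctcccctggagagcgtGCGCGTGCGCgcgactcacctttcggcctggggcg
Mrps22 (GRCm38.p6 chr9:98601630-98601929, minus strand): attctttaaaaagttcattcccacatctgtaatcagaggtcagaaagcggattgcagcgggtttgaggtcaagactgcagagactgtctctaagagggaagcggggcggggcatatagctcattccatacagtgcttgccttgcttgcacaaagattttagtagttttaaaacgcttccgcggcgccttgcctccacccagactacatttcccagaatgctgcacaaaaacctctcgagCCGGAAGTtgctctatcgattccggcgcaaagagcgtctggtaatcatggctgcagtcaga
Mrps5 (GRCm38.p6 chr2:127587176-127587475, plus strand): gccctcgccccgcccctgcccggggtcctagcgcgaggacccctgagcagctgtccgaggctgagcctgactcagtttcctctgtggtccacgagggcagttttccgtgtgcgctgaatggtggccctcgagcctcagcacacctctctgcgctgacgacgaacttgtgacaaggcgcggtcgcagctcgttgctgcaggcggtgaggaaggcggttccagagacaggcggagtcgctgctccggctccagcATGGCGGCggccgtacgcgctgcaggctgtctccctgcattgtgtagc
Mrpl42 (GRCm38.p6 chr10:95501900-95502199, minus strand): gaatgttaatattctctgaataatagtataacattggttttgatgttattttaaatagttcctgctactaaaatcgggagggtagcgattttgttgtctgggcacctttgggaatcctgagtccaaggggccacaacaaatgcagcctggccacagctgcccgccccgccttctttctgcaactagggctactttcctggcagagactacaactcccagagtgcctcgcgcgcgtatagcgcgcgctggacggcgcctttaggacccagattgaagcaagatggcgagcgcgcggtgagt

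The NRF1 form stood in 17.6% of the members' windows and in 4.60% of all 32851 windows of the same length. For the ETS form the shares were 16.2% and 3.89%, and for the YY1 form 16.2% and 2.24%. In all, 33 of the 68 genes had a match to one or more of them and 35 had none. A match is a description of letters and no evidence of binding in these cells. The median log2 fold change of transgenic over wild type was -0.09 in the genes with a match and -0.10 in those without, with 30 of 33 and 32 of 35 below 0.

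The libraries held 39022281 to 46985605 fragments, and every wild-type library was deeper than every transgenic one. CPM stands for fragment counts scaled to library size. Gata3 was higher in the transgenic group (53.6 to 61.6 CPM, wild type 38.2 to 49.1 CPM), a difference not called by edgeR (adjusted p = 0.17) and called by DESeq2 (adjusted p = 0.00698). Wild-type replicate 1 and transgenic replicate 3 carried RNA of Y-linked genes (18522 and 16840 fragments) and the other 4 libraries 16 to 26 fragments. The DN3 markers Il2ra, Ptcra, Cd3e, Rag1, Rag2, Dntt, Notch1, Bcl11b and Tcf7 summed to 8188 to 9925 CPM in every library, which fits the label. Il2ra was lower in the transgenic group without overlap (log2 fold change -0.17), and Notch1 and Bcl11b were higher without overlap (0.19 and 0.26). Over all genes 10.1% and 8.73% did so. The other DN3 markers overlapped. DESeq2 called Notch1 and Bcl11b (adjusted p = 0.0371 and 0.0186), edgeR no DN3 marker. B cell markers reached 0.49 CPM at most, with Pax5 at 0. Erythroid markers summed to 0.95 to 3.37 CPM (wild type) and to 2.20 to 5.26 CPM (transgenic). The myeloid list summed to 17.8 to 24.8 CPM, mostly Lyz2 with Mpo at or near 0, and the dendritic list to 6.21 to 11.7 CPM, mostly Zbtb46. Of the innate lymphoid markers Ncr1 was at 0 and Nkg7 at 31.2 to 46.9 CPM, and of the epithelial ones Epcam was at 74.9 to 91.5 CPM with Foxn1 at or near 0. In bulk RNA, fewer cells that make a transcript and less of it per cell cannot be told apart.

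Every one of the 77 genes was expressed, at mean levels from 11.3 to 143 FPKM (fragments scaled to transcript length and library size, summed over a gene's transcripts), and 72 of them lay between 10 and 100 FPKM. The medians of the large and small subunit genes were 37.9 and 36.5 FPKM. The highest RNA level was 12.6 times the lowest. The order of the levels was much the same in every library, with Spearman's rho across the 77 genes from 0.961 to 0.983 between libraries, a description over genes that share libraries and transcript lengths. Within a group the libraries lay close together: the coefficient of variation of CPM had a median of 5.63% in wild type and 5.56% in transgenic cells, and reached 14.2% and 18.3%.

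**Figure D1:**
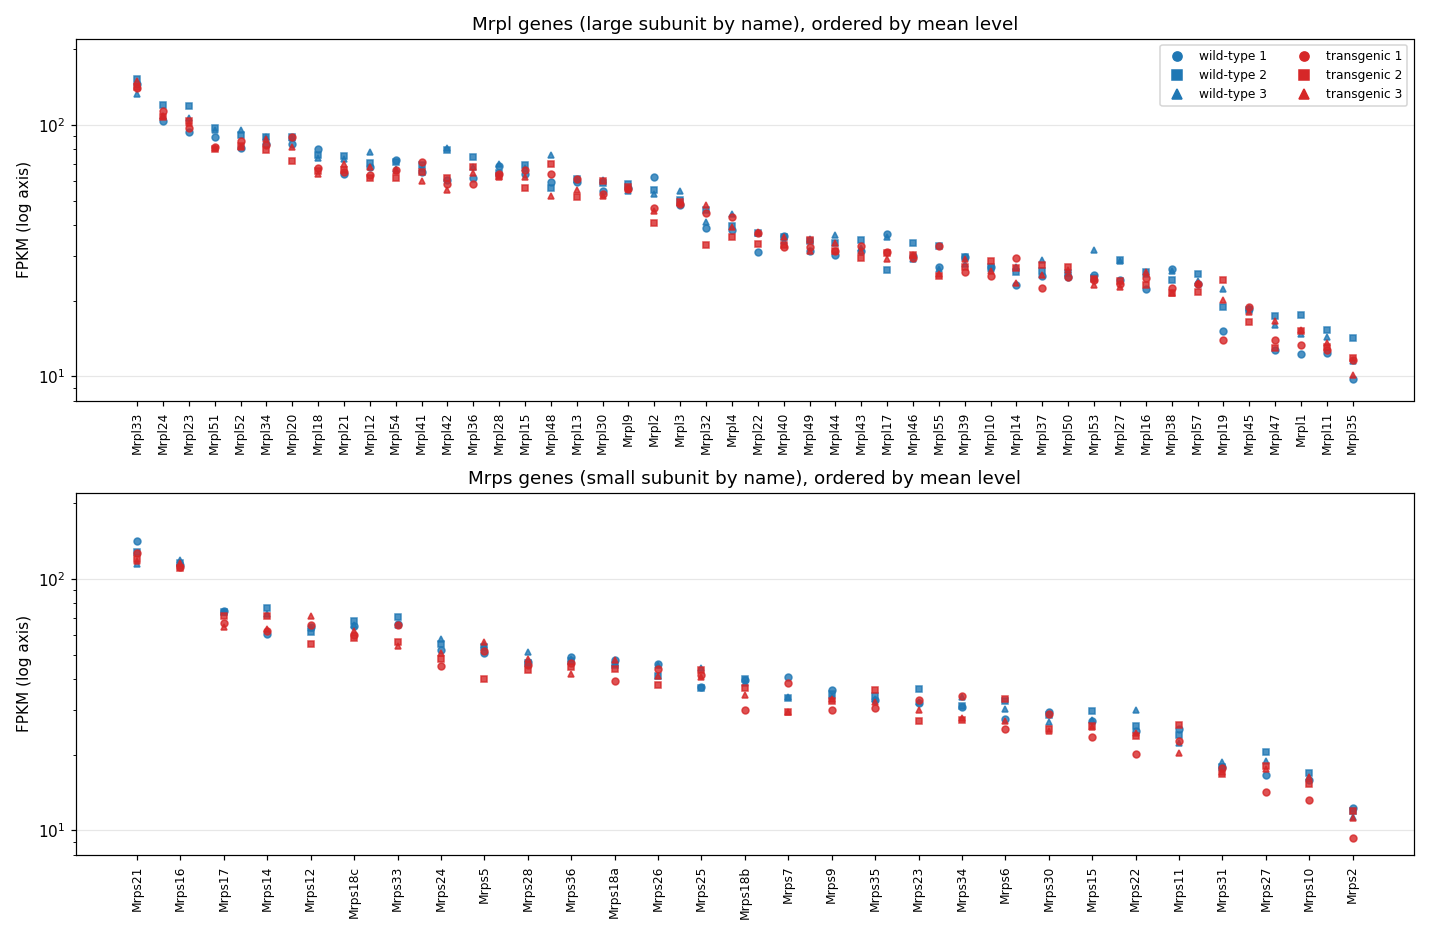
FPKM (y axis, log scale) of each Mrpl gene (upper panel) and Mrps gene (lower panel) in the 3 wild-type (blue) and 3 transgenic (red) libraries, with circle, square and triangle for replicates 1, 2 and 3, ordered by the mean of 6 libraries. Levels fall from 143 FPKM for Mrpl33 to 11.5 FPKM for Mrpl35 and from 125 FPKM for Mrps21 to 11.3 FPKM for Mrps2, and the 2 colours lie among each other for most genes.

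Mrpl33, a small protein with a bacterial counterpart, was highest, at 145, 152 and 133 FPKM in wild type and 140, 141 and 149 FPKM in the transgenic group (here and below in the order of replicates 1, 2 and 3). Mrps21 stood at 141, 128 and 115 FPKM in wild type and 126, 120 and 118 FPKM in transgenic libraries. Mrps16 lay at 113, 115 and 119 FPKM against 112, 111 and 115 FPKM. Neighbours in this order overlapped, so the spread does not separate them. Mrpl24 and Mrpl23, whose bacterial counterparts sit at the mouth of the tunnel through which the new chain leaves, followed with means of 110 and 104 FPKM. Mrpl51 and Mrpl52, at 87.5 and 86.4 FPKM, closed the leading group of the large subunit. In the small subunit Mrps17, Mrps14 and Mrps12 came next at 70.9, 67.6 and 63.6 FPKM, and Mrps12 is the counterpart of a bacterial protein of the decoding centre. FPKM of short transcripts is sensitive to how fragment length is modelled, and the leading transcripts of Mrpl33 and Mrps21 are 478 and 488 bases long.

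The lowest levels belonged to Mrps2, at 11.3 to 12.3 FPKM in wild type and 9.36 to 11.9 FPKM in transgenic libraries, and to Mrpl35, at 9.77, 14.2 and 11.5 FPKM and 11.6, 11.8 and 10.1 FPKM. Mrpl11, a protein of the region where translation factors bind, had a mean of 13.6 FPKM, Mrps10 of 15.7 FPKM and Mrps27, which has pentatricopeptide repeats of the kind that bind RNA, of 17.6 FPKM. The spread of these 5 genes covers the distance between neighbours. Their leading transcripts are 1848 to 4090 bases long, beside a median of 1122 over the members, and no gene of the 77 fell under 510 fragments in any library. The pseudogene Mrpl23-ps1 stood at 0.62 to 1.44 FPKM, and its fragments may belong to the parent gene Mrpl23.

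The members were on the whole slightly lower in transgenic cells, and no single one was called. Of the 81 symbols 78 passed the filter on low counts, namely the 77 genes and Mrpl23-ps1. Mrpl48-ps, Mrps36-ps1 and Mrps36-ps2 did not pass. Over the 78 the median log2 fold change was -0.10, or -6.55%, and 71 lay below 0 and 7 above, beside a median of 0.001 and 49.8% below 0 over all 14653 genes tested. In edgeR's quasi-likelihood test with Benjamini-Hochberg adjustment over all genes, 0 of 78 members passed an adjusted p of 0.05, where 0.0136% of all genes did, and the smallest adjusted p of a member was 0.208. DESeq2 called 0 of the 77 members it adjusted, against 5.23% of the genes it adjusted, with a smallest adjusted p of 0.0566 for Mrpl42. At an unadjusted p under 0.05 edgeR placed 9 members lower (11.5%) and 0 higher, beside 7.7% and 5.71% of all genes. The 9 were Mrpl12, Mrpl42, Mrpl2, Mrps18b, Mrpl45, Mrps22, Mrps5, Mrpl19 and Mrpl38. The direction of Mrpl19 depended on the unit, with -0.21 from fragment counts and 0.03 from limma on log2(FPKM + 0.5). Every transgenic library lay below every wild-type library for 18 members (23.1%), beside 10.1% of all genes, and above for 0, beside 8.73%. All members were measured in the same libraries, so these counts are a description and the members are not separate observations.

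**Figure D2:**
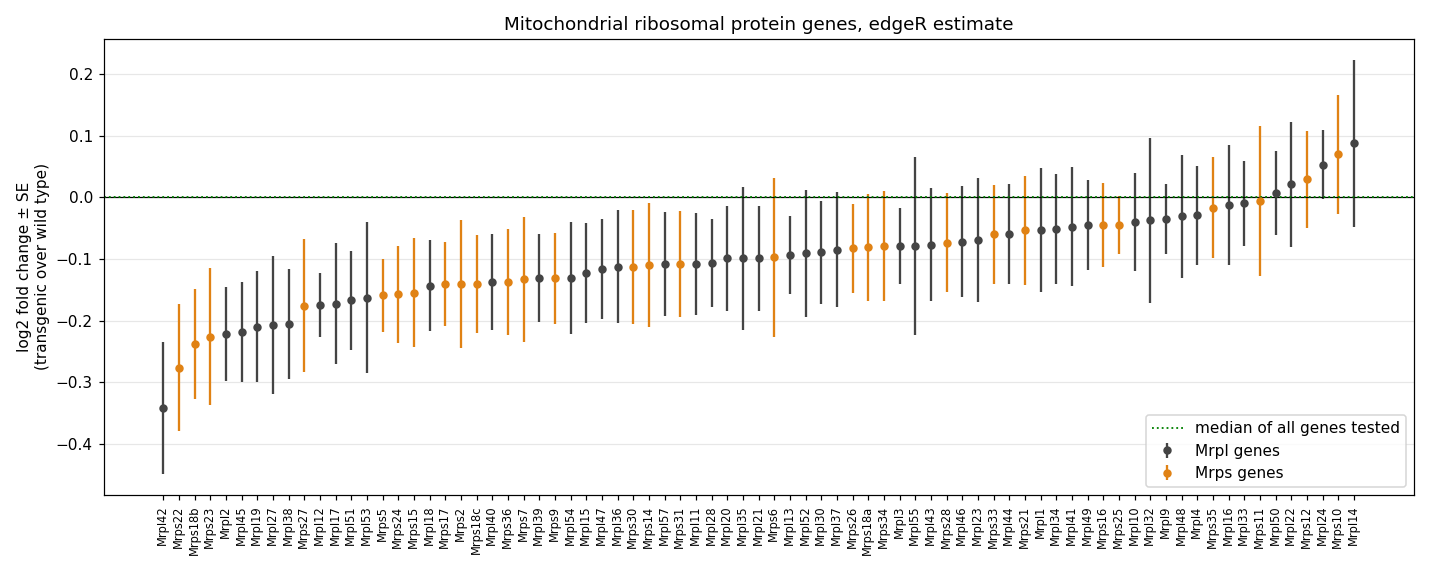
Log2 fold change of transgenic over wild type (y axis) with its standard error for the 77 genes, ordered by value, with Mrpl genes in grey and Mrps genes in orange. Of them 71 lie below 0 and 6 above, from -0.34 for Mrpl42 to 0.09 for Mrpl14, while the dotted line marks the median of all genes tested at 0.001.

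Standard errors of the log2 fold change ran from 0.05 to 0.14 with a median of 0.09, and 35 of 77 genes lay within 1 standard error of 0 and 65 within 2. The 95% confidence intervals of all 77 genes stayed inside a 1.5-fold change in either direction, the lowest bound being -0.58 for Mrpl42 and the highest 0.39 for Mrpl14. At this depth and spread a change of 1.5-fold or more is thus outside the interval of every gene, for Mrpl42 only just. The intervals are per gene and not adjusted for the number of genes. A difference of a few percent in a single gene was not detectable.

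Mrpl42, a large subunit protein without a bacterial relative (ENSMUSG00000062981, chromosome 10, 95480805 to 95501940, minus strand), had the lowest value. Wild type held 41.1, 51.6 and 52.9 CPM, the transgenic group 39.1, 40.2 and 35.7 CPM. The groups did not overlap, but wild-type replicate 1 lay close to the highest transgenic library. The means were 48.5 ± 6.51 and 38.3 ± 2.31 CPM (SD, n = 3 each), and the log2 fold change was -0.34 ± 0.11 (SE; edgeR, adjusted p = 0.221). Without wild-type replicate 1 the value was -0.45 and passed (edgeR, adjusted p = 0.0226), the only member called in that fit, where 3.32% of all genes were called.

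Mrpl12, the protein of the flexible stalk that recruits translation factors and is also known to bind the mitochondrial RNA polymerase (ENSMUSG00000039640, chromosome 11, 120484613 to 120489065, plus strand), had the smallest p. It was at 109, 118 and 118 CPM in wild type and at 103, 102 and 101 CPM in transgenic libraries. The transgenic libraries lay close to each other and all below wild type. The log2 fold change was -0.17 ± 0.05 (SE; edgeR, adjusted p = 0.208), and the 95% confidence interval ran from -18.2% to -3.94%.

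Mrpl2, whose bacterial counterpart belongs to the core of the peptidyl transferase region (chromosome 17, 46646229 to 46650139, plus strand), was at 48.8, 54.4 and 52.2 CPM in wild type and 44.8, 43.1 and 45.3 CPM in transgenic libraries. Mrpl45, a protein near the tunnel exit that helps dock the ribosome to the inner membrane (chromosome 11, 97315716 to 97329920, plus strand), was at 43.6, 47.7 and 48.3 CPM against 40.8, 41.6 and 37.6 CPM. Mrps22, a small subunit protein without a bacterial relative in which human mutations cause mitochondrial disease (chromosome 9, 98588730 to 98601660, minus strand), was at 32.2, 34.8 and 39.8 CPM against 27.0, 30.1 and 31.1 CPM. In each of these 3 genes the groups stood apart with a gap smaller than the range within wild type. Their log2 fold changes were -0.22 ± 0.08, -0.22 ± 0.08 and -0.28 ± 0.10 (SE; edgeR, adjusted p = 0.256, 0.289 and 0.291). For Mrpl45 the difference shrank on the FPKM scale, where wild-type libraries held 18.3 to 18.7 FPKM and transgenic ones 16.5 to 18.8 FPKM, with overlap.

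**Figure D3:**
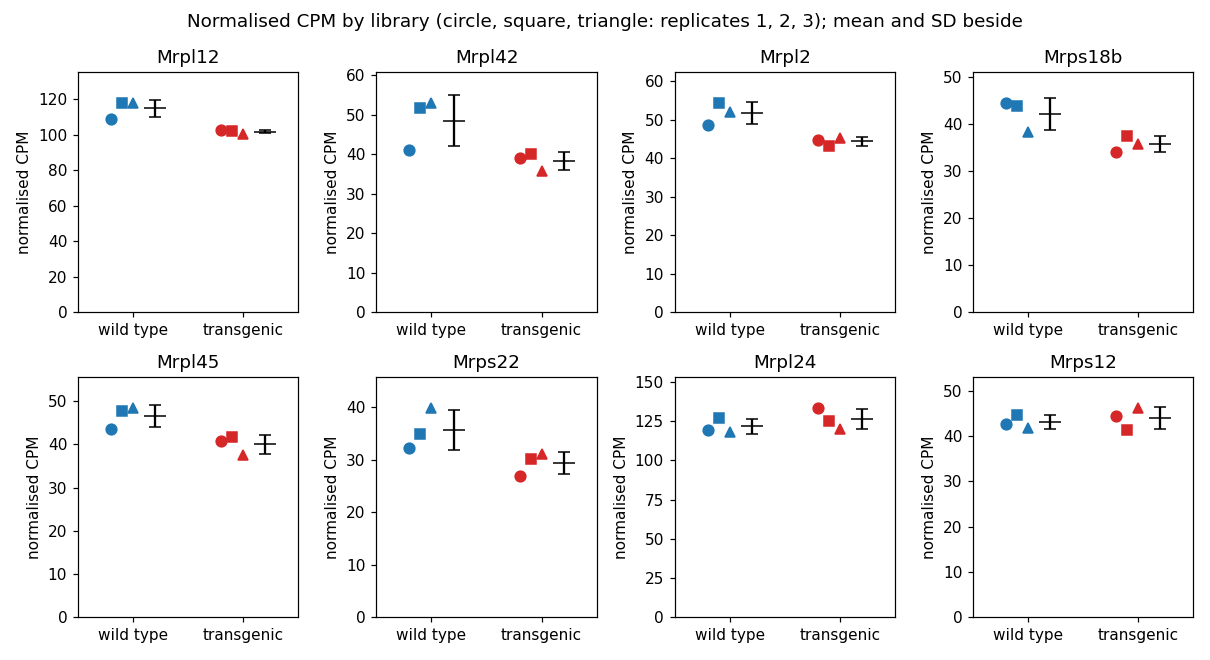
Normalised CPM (y axis, from 0) of the 6 members with the smallest p among those below 0 and of 2 above 0 (Mrpl24 and Mrps12), in wild-type (blue) and transgenic (red) libraries, with circle, square and triangle for replicates 1, 2 and 3 and the mean and SD of 3 libraries beside them. The groups of the first 6 genes stand apart by a narrow gap, as for Mrpl12 at 109 to 118 and 101 to 103 CPM, and those of Mrpl24 and Mrps12 overlap.

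The Mrps18 paralogs, relatives of a single bacterial protein, were all measured below 0. Mrps18b (chromosome 17, 35910379 to 35916389, minus strand) was at 44.4, 43.8 and 38.3 CPM in wild type and 34.0, 37.5 and 35.8 CPM in transgenic libraries, without overlap, a log2 fold change of -0.24 ± 0.09 (SE; edgeR, adjusted p = 0.287). Mrps18c was at 36.1, 37.2 and 35.8 CPM against 34.5, 31.5 and 33.0 CPM, also without overlap (-0.14 ± 0.08, SE). Mrps18a, the paralog of the large subunit, was at 46.9, 44.5 and 43.5 CPM against 38.3, 44.4 and 44.8 CPM, with overlap (-0.08 ± 0.09, SE). Between the paralogs the difference itself was not tested. Mrps30, the other large subunit protein with a small subunit name, had a log2 fold change of -0.11 ± 0.09 and Mrps36 of -0.14 ± 0.09 (SE). Mrps16, an early-assembling protein of the small subunit in bacteria, showed how little separates groups that do not overlap: 50.1, 50.3 and 50.5 CPM in wild type against 49.3, 48.2 and 48.8 CPM, a log2 fold change of -0.04 ± 0.07 (SE). The other members named by level lay between the log2 fold changes -0.18 for Mrps27 and -0.01 for Mrpl33, none called.

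Besides the pseudogene, 6 members lay above 0, all by less than their standard error. Mrpl14, with 12.8, 15.4 and 14.5 CPM in wild type and 17.2, 15.1 and 13.1 CPM in transgenic libraries, had the highest value, 0.09 ± 0.14 (SE). Mrps10 followed at 0.07 ± 0.10, Mrpl24 at 0.05 ± 0.06, Mrps12 at 0.03 ± 0.08, Mrpl22 at 0.02 ± 0.10 and Mrpl50 at 0.01 ± 0.07 (SE). All 6 overlapped between the groups. For Mrps10 the direction depended on the unit: with fragment counts it was above 0, and with limma on log2(FPKM + 0.5) it was -0.13. Its fragments are spread over 11 transcripts, the leading one holding 36.2% of them. The pseudogene Mrpl23-ps1 was at 0.351, 0.689 and 0.465 CPM against 0.815, 0.715 and 0.635 CPM (0.52 ± 0.56, SE).

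The ratio of small to large subunit RNA overlapped between the groups, while both sums were lower in the transgenic group. Over all members the level summed to 3617, 3809 and 3777 FPKM (wild type) and 3522, 3460 and 3505 FPKM (transgenic). Every transgenic sum lay below every wild-type sum, and the transgenic mean was 6.41% lower. Members took 0.377, 0.395 and 0.379% of all fragments in wild type and 0.366, 0.364 and 0.355% in transgenic libraries. The large subunit summed to 2292, 2471 and 2447 FPKM in wild type and 2280, 2229 and 2258 FPKM in transgenic libraries, so that wild-type replicate 1 lay just above the transgenic libraries. The small subunit summed to 1325, 1339 and 1331 FPKM against 1242, 1230 and 1247 FPKM, with a wider gap relative to its spread. The ratio of small to large was 0.578, 0.542 and 0.544 in wild type and 0.545, 0.552 and 0.552 in transgenic libraries, and the groups overlapped. With Mrps18a and Mrps30 counted as large and Mrps36 left out, it was 0.506, 0.478 and 0.480 against 0.480, 0.486 and 0.486, and overlapped again. The median log2 fold change was -0.09 over 49 large subunit symbols and -0.11 over 29 small subunit genes. In the small subunit the groups did not overlap for 10 of 29 genes and in the large for 8 of 49 (34.5% and 16.3%, beside 10.1% of all genes), and the difference between the subunits was not tested.

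The median lay below 0 in each evolutionary and genomic class looked at. Proteins with a bacterial counterpart (48 genes) had a median of -0.10 and those without (29 genes) of -0.11. The 77 genes lie on 17 chromosomes. In GENCODE M21, 18 of them have a divergent protein-coding neighbour, on the other strand with its start within 1000 bases upstream and no overlap. Opposite-strand genes that overlap a member at its start, as Mrps11 does Mrpl46, were not counted as such. These 18 had a median of -0.10, as did the other 58 genes with a position in that annotation, which leaves out Mrpl33. The 18 neighbours themselves had a median of 0.01, with 9 below 0. At an unadjusted p under 0.05 (edgeR) 4 of them differed. Ncapd2, Ska3 and Psma2 were lower (-0.27, -0.34 and -0.17) and Pnpla7 higher (0.24), beside 7.7% and 5.71% of all genes. Other examples are Sars2, the mitochondrial seryl-tRNA synthetase beside Mrps12 (172 bases between the starts), with -0.11, and Klc4 beside Mrpl2 (207 bases), with 0.02. Exons of 27 members overlap exons of another gene on the opposite strand and those of 7 a gene on the same strand, where the counting, for which no source used here states a strand setting, could mix fragments. Mrpl46 and Mrps11 are such a pair and overlap each other. Among the 45 positioned members free of any overlap 41 lay below 0, with a median of -0.10.

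At the level of transcripts the table lists 276 for these symbols, with a single one for 19 genes and up to 11. In the 58 genes with more than 1, the leading transcript held a median of 87.2% of the gene's fragments. Of the 276 transcripts, 253 were tested by the authors, and their deposited table places 163 below 0. The share below 0 over all tested transcripts was not counted. The authors' deposited table marks 0 of the 253 as significant, beside 0.25% of all tested transcripts. At an unadjusted p under 0.05 the authors' deposited table has only 2 of the 253. They are Mrpl42, with a log2 fold change of -0.33 and q = 0.967, and a transcript of Mrps23, with -0.30 and q = 0.998. The share of all tested transcripts at that p was not counted, so nothing is read from these 2 about the members.

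In the rest of the machinery of mitochondrial translation, assembly factors and tRNA synthetases were less uniform in direction than the members, and no gene was called. All 6 further ribosome subunits with other names (Dap3, Chchd1, Aurkaip1, Ptcd3, Gadd45gip1 and Ict1) lay below 0, with a median of -0.11. Ict1, a ribosome-bound peptidyl-tRNA hydrolase, was at 74.6, 74.9 and 73.7 CPM in wild type and 70.9, 64.8 and 68.1 CPM in transgenic libraries. Of 13 translation factors 12 lay below 0 with a median of -0.09, Gfm2, a factor of ribosome recycling, with -0.18 ± 0.08 and Tufm, the elongation factor that brings the tRNA, with -0.13 ± 0.07 (SE). Of 28 assembly factors 19 lay below 0 and 9 above, with a median of -0.03. At an unadjusted p under 0.05 (edgeR) 2 assembly factors were higher and 1 lower, beside 5.71% and 7.7% of all genes, too few to read anything about the list. Mterfd1, a factor of ribosome assembly, was at 19.9, 22.2 and 22.7 CPM against 27.1, 25.6 and 29.5 CPM (0.34 ± 0.10, SE; edgeR, adjusted p = 0.20), and C1qbp had -0.25 ± 0.09 (SE). Of 17 tRNA synthetases 9 lay below 0, with a median of -0.03. Lars2, for leucine, was at 3135, 2418 and 3466 CPM against 3996, 3713 and 5698 CPM (0.57 ± 0.16, SE; edgeR, adjusted p = 0.20).

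Of 13 genes of mitochondrial transcription and RNA handling 11 lay below 0, with a median of -0.06, and Tfam, which packs and transcribes the mitochondrial genome, had -0.18 ± 0.06 and the protease Lonp1 -0.22 ± 0.06 (SE). Of 8 tested regulators of mitochondrial biogenesis 5 lay below 0, with a median of -0.02, Myc having -0.08 ± 0.06 and Yy1 -0.07 ± 0.06 (SE). The 12 tested mRNA genes of the mitochondrial genome, whose transcripts this ribosome reads, had 6 below 0 and 6 above and a median of -0.003, with mt-Nd6 at -0.53 ± 0.13 and mt-Nd1 at -0.21 ± 0.06 (SE). Their log2 fold changes ran from -0.53 to 1.07, and DESeq2 gave an adjusted p to 8 of them. The nuclear genes of the respiratory chain had 67 of 77 below 0 and a median of -0.12. At an unadjusted p under 0.05 (edgeR) 24 of them were lower (31.2%) and 0 higher, beside 7.7% and 5.71% of all genes. Uqcrc1 and Atp5o had -0.19 ± 0.06 and -0.23 ± 0.07 (SE). The cytosolic ribosomal protein genes had 69 of 83 below 0 and a median of -0.04. Of these, 4 were lower at an unadjusted p under 0.05 (edgeR; 4.82%), beside 7.7% of all genes. Rps25 and Rps2 had -0.17 ± 0.05 and -0.14 ± 0.05 (SE). In none of these lists did edgeR call a gene. DESeq2 called Lonp1, Rps25 and mt-Nd6 as lower (adjusted p = 0.0444, 0.0234 and 0.0306) and no other gene of them. Over the whole table DESeq2 called 5.23% of the genes it adjusted. Whether the members differ from these lists was not tested.

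**Figure D4:**
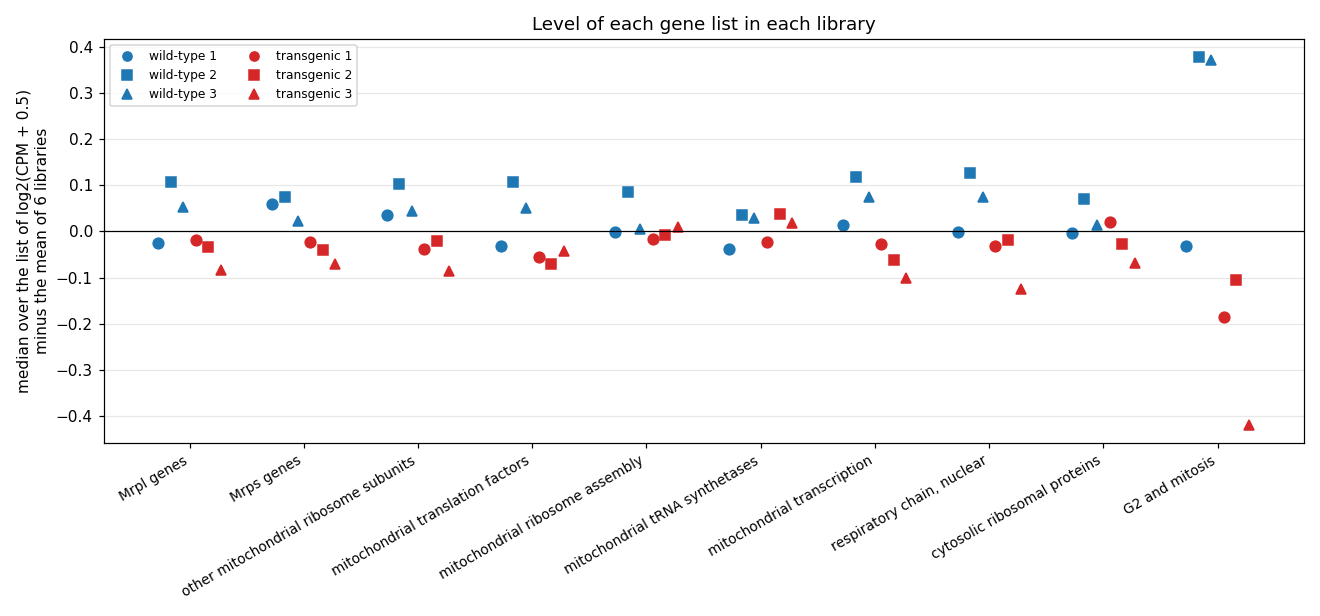
Median over each gene list of log2(CPM + 0.5), centred on each gene's mean of 6 libraries (y axis), for wild-type (blue) and transgenic (red) libraries, with circle, square and triangle for replicates 1, 2 and 3. Mrpl genes run from 0.11 in wild-type replicate 2 to -0.08 in transgenic replicate 3 and Mrps genes from 0.07 to -0.07, while the list of G2 and mitosis runs from 0.38 to -0.42 in the same 2 libraries.

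Other measures were also lower in the transgenic group, and whether they moved with the members from library to library was not tested. Wild-type replicate 2 held the highest value for 34 of the 78 tested members and transgenic replicate 3 the lowest for 32. The median of log2(CPM + 0.5), taken per gene as the distance from its mean over 6 libraries, was 0.002, 0.08 and 0.04 in wild type and -0.02, -0.04 and -0.08 in the transgenic group. For 20 genes of G2 and mitosis the same measure was -0.03, 0.38 and 0.37 against -0.19, -0.11 and -0.42, and their summed level 3781, 4843 and 4974 CPM against 3332, 3512 and 2878 CPM. All 20 lay below 0 and at an unadjusted p under 0.05 (edgeR), beside 7.7% of all genes. None was called by edgeR, while DESeq2 called all 20 as lower, beside 5.23% of the genes it adjusted called in either direction. Ccnb2 had -0.50 ± 0.09 and Bub1b -0.47 ± 0.09 (SE). The list was chosen with earlier results of these data known, so its uniform direction is a description and no test. Of the later thymocyte markers, Cd4 did not fall under 6.76 CPM in any wild-type library and reached 4.86 CPM at most in a transgenic one. Cd8a ranged over 6.82 to 10.8 CPM (wild type) and 1.37 to 5.53 CPM (transgenic), Cd8b1 over 7.21 to 10.7 and 3.07 to 5.73 CPM, and Cd28 over 57.7 to 65.1 and 47.5 to 49.4 CPM. None of these 4 overlapped between the groups, beside 10.1% of all genes that were lower without overlap, and edgeR called none. Cd4, Cd8a and Cd8b1 rested on 54 to 499 fragments in a library. DESeq2 called Cd28 (adjusted p = 0.00484) and gave no adjusted p to the other 3. The part of dividing cells, of later thymocytes and of depth in the members' difference was not tested.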

How the data were processed

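Total RNA of 6 libraries was depleted of ribosomal RNA, per the labels' protocols. The authors used TopHat2 and Cuffdiff on mm10, per the submitters' processing notes. No source used here gives their versions, the annotation or the strand setting. For each transcript the deposited table holds an estimated count (raw fragments) and FPKM in every library, per the file headers. It also holds the authors' own test, as p-value, q-value and log2 fold change. The number of per-sample columns of no labelled sample was 0.

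Expected counts were summed per symbol and rounded. The 197 symbols with a failed estimate (466 transcripts with status HIDATA) were left out. Genes kept by filterByExpr (minimum count 10, minimum total 15; 14653 genes) were scaled by TMM and tested with edgeR 4.0.16 (R 4.3.3), two-sided and without covariate, with Benjamini-Hochberg adjustment over all genes. Alternatives used DESeq2 1.42.0 and limma 3.58.1. Standard errors come from the F statistic; 95% intervals use the prior (5.61) and residual (4) degrees of freedom. No pair of libraries within a group agreed within sampling noise (chi-square of 16.4 to 43.6 per gene). An exact permutation test of 3 against 3 libraries cannot go below p = 0.1 and was not used.

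Members, lists and the rule for naming genes were chosen with earlier results of these data known. The rule named the 6 members with the smallest p in each direction, the 5 highest and 3 lowest of each subunit, a set including Mrpl11, Mrpl12, Mrps12, Mrps16, the Mrps18 paralogs, Mrps30 and Mrps36, and the 2 with the smallest p of each related list. A tRNA synthetase that the rule names and a later thymocyte marker are not reported here. Mrpl46, Mrps11, Mrps5, Mrpl19, Mrpl38, Mrps23, Mrpl50 and the printed neighbours were named after their values were seen. Gene positions come from GENCODE M21 (GRCm38), matched by gene ID for 80 of 81 symbols, Mrpl33 being without a match; promoter sequences are RefSeq's, on GRCm38.p6.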

Additional observations from a re-analysis of the deposited data

How the results depend on the processing

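No alternative turned the direction of the members' median, which stayed below 0 in all of them. The count of genes called over the whole table, 2, was 497 with DESeq2, 127 without a filter on low counts, 4 with limma on log2(FPKM + 0.1), 260 without the libraries with Y-linked RNA, 256 with a covariate for Y-linked RNA, 92 with the failed loci kept and 1 to 498 when a library was left out (498 without wild-type replicate 1, and 1 without any of wild-type replicates 2 and 3 and transgenic replicates 2 and 3). Members called stayed at 0 except for 1, Mrpl42, without wild-type replicate 1, a range of 0 to 1. Members at an unadjusted p under 0.05 numbered 3 to 10 when a library was left out, namely 3 without the third wild-type library, 5 without the second and 6 without the third transgenic one. The members' median ran from -0.11 to -0.0617, the latter without wild-type replicate 2, where 60 of 78 lay below 0. The large subunit's median ran from -0.11 to -0.04 and the small subunit's from -0.12 to -0.0822. The summed level ran from -0.12 to -0.08 on the log2 scale, and the small to large ratio from -0.03 to 0.02 around -0.01, above 0 without wild-type replicate 1.

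The replicate number as a block gave 14 called genes and 0 called members, with a members' median of -0.09. Same-numbered libraries deviated together by correlations of 0.09, 0.04 and -0.004, so the number was not taken to pair them.

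In all, 26 of the 77 genes changed sign in at least 1 alternative, and 1 of them, Mrpl19, was among the 9 at an unadjusted p under 0.05 (-0.21, and 0.03 at its highest). For the members described singly, with limma on log2(FPKM + 0.5) and log2(FPKM + 0.1) the log2 fold changes were -0.0045 and -0.0045 for Mrpl24, 0.0011 and 0.0011 for Mrpl33 and -0.13 and -0.13 for Mrps10. Without the libraries with Y-linked RNA they were -0.0825 for Mrpl22, -0.0222 for Mrps10, -0.0143 for Mrps12 and 0.0407 for Mrps21. Leaving out 1 library gave -0.0136 to 0.18 for Mrpl14, -0.0591 to 0.0688 for Mrpl22, -0.16 to 0.0471 for Mrpl23, -0.0534 to 0.0298 for Mrpl33, -0.19 to 0.0120 for Mrpl35, -0.0057 to 0.12 for Mrps10 and -0.0068 to 0.0752 for Mrps12. The cause was not tested.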
